A study of Homo sapiens with 8 samples.

Results

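The BCL2 family decides, through the outer membrane of mitochondria, whether a cell enters apoptosis. The 10 members described here were chosen by name and were 3 anti-apoptotic members (BCL2, BCL2L1 and MCL1), 2 effectors (BAX and BAK1) and 5 BH3-only members (BCL2L11, BBC3, PMAIP1, BID and BIK). A probe set named for the gene was found for 9 of the 10, each with 1 probe set, among 21448 probe sets tested, and BBC3 was not analysed here. The cells were H1299, an established line from a human non-small cell lung carcinoma, and RNA levels were read on Clariom S arrays, which report transcript levels gene by gene. The groups were H1299 treated with GA (gallic acid, a phenolic acid of tea) for 120 h, their untreated controls (Ctrl-GA), H1299 treated with 5azaC (5-azacytidine, an inhibitor of DNA methyltransferases) for 120 h, and their untreated controls (Ctrl-5azaC), with 2 biological replicates each. The study's methods give 10 μM of either compound and the sample labels give 10 mM, and the controls of an experiment were cells of the same passage. All groups therefore come from 1 line, and no group holds another genotype.

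KRT8 and KRT18, keratins of simple epithelia, and VIM, CDH2 and FN1, genes of mesenchymal-like carcinoma cells, were above background on all 8 arrays. The epithelial genes KRT19, EPCAM and CDH1 were below it on all 8, as were all 4 lung-lineage genes examined (NKX2-1, SFTPB, SFTPC and NAPSA), so the label of a lung line rests on no lung-lineage gene here. The 4 blood and 3 endothelial genes measured were also below it on every array, and of 4 fibroblast genes COL1A2 alone passed it, on 3 arrays. Background on an array was the log2 signal under which 95% of its 612 negative controls lay (6.31 to 7.23), and 39.9% to 46.1% of probe sets exceeded it. It was 6.78 and 6.89 on GA arrays and 6.31 and 6.51 on Ctrl-GA arrays. On 5azaC arrays it was 7.00 and 7.23, and on Ctrl-5azaC arrays 6.97 and 6.40. Whether a gene passes background therefore depends on the array as well as on its signal. No change is read for a gene below background in both groups, and a gene below it in 1 group has a lower bound for its fold.

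Anti-apoptotic members hold the effectors and the BH3-only members in check by binding them. BAX and BAK1, once freed and activated, form pores in the outer mitochondrial membrane, through which cytochrome c leaves and sets off the caspases. BH3-only members sense stress and either block the anti-apoptotic members or activate the effectors, and much of the control of BCL2L11, PMAIP1 and BBC3 is transcriptional.

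5azaC inhibits DNA methyltransferases, which methylate CpG sites. The 250 bases before the transcription start are therefore shown for 4 members on whose levels the results below turn. BCL2L11 and PMAIP1 are shown because their windows were the richest in CpG among the members, and BCL2L1 and BID for the start lying farthest upstream, since each has more than 1. The sequences are from RefSeq (GRCh38.p14), read 5′ to 3′ on the strand of the gene, with every CpG in capitals. The windows lie at chr2:111120664-111120913 on the + strand for BCL2L11, chr18:59899746-59899995 on the + strand for PMAIP1, chr20:31723964-31724213 on the - strand for BCL2L1 and chr22:17774666-17774915 on the - strand for BID.
BCL2L11: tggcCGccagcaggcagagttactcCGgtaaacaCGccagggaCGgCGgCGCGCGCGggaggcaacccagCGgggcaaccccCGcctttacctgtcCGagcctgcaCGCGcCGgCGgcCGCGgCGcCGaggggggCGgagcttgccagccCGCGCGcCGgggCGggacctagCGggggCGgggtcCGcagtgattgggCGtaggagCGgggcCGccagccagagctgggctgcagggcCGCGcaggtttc
PMAIP1: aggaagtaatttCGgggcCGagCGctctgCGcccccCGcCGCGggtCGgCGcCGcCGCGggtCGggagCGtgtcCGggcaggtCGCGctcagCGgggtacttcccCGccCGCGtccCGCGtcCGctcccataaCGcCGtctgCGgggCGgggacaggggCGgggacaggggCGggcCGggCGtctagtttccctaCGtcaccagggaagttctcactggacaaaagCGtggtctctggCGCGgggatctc
BCL2L1: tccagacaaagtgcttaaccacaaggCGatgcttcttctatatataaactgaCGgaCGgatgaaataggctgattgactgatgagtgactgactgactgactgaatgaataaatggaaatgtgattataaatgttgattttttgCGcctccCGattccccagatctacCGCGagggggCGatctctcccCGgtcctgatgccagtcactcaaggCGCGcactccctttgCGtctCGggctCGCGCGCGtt
BID: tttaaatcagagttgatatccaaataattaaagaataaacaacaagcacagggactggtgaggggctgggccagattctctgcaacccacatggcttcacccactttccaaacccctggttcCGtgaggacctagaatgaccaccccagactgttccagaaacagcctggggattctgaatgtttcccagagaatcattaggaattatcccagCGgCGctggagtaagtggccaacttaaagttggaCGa

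In these windows BCL2L11 had 34 CpG sites, PMAIP1 36, BCL2L1 17 and BID 4, against a median of 11 (quartiles 3 and 23) over 35116 windows of the same length. Windows were found for 8 of the 10 members, 13 in all, and held 4 to 36 CpG sites. MCL1 and BIK were not among them. The other 4 BID windows lay nearer the gene and had 24 to 30 CpG sites, so its count depends on the start used. The GC box, GGGCGG, searched on both strands and holding a CpG itself, had 4 matches before PMAIP1, 3 before BCL2L11 and 0 before either BCL2L1 start, and was present in 42.6% of all windows. It had 0 matches in the BID window shown and 1 to 4 in the other 4 BID windows. BAK1 had 2 matches, BAX 1, and BCL2 and BBC3 0. The forkhead core GTAAACA had 1 match, before BCL2L11, and was present in 2.98% of all windows. The stress-response element TGATGNAA had 0 matches in the 13 windows and was present in 3.14% of all windows. A match is a run of letters and not a measured site, and the arrays do not measure methylation.

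After GA, 0 of the 9 measured members passed the test (limma, adjusted p below 0.05), beside 0.322% of all probe sets. After 5azaC, 0 of the 9 passed, beside 1.51% of all probe sets. At an unadjusted p below 0.05, 4 of the 9 members (44.4%) passed after either treatment, beside 15.8% of all probe sets for GA and 20.3% for 5azaC. These were BCL2, BCL2L1, MCL1 and BCL2L11 after GA, and BCL2, BCL2L1, MCL1 and BID after 5azaC, and BCL2 was below background on every array. In the GA experiment 11604 of 21448 probe sets were below background on all 4 arrays, against 2 of the 9 members. In the 5azaC experiment these were 11474 probe sets and 3 members, so the shares compare unlike sets. The paired test named in the study's methods, at an unadjusted p below 0.05 and a 2-fold change, called 0 members after GA and 0 after 5azaC. The log2 fold changes of the members ran from -0.70 to 0.71 after GA and from -0.99 to 0.97 after 5azaC. No member reached 2-fold, so neither a paired nor an unpaired test at that limit could call one. The arrays of treated and untreated cells did not overlap for 4 of 9 members after GA and 5 of 9 after 5azaC, which is close to the share of all probe sets, 46.7% and 50.3%. The median log2 fold change of the 9 members was -0.01 after GA and -0.03 after 5azaC, beside 0.02 and 0.05 over all probe sets.

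**Figure D1:**
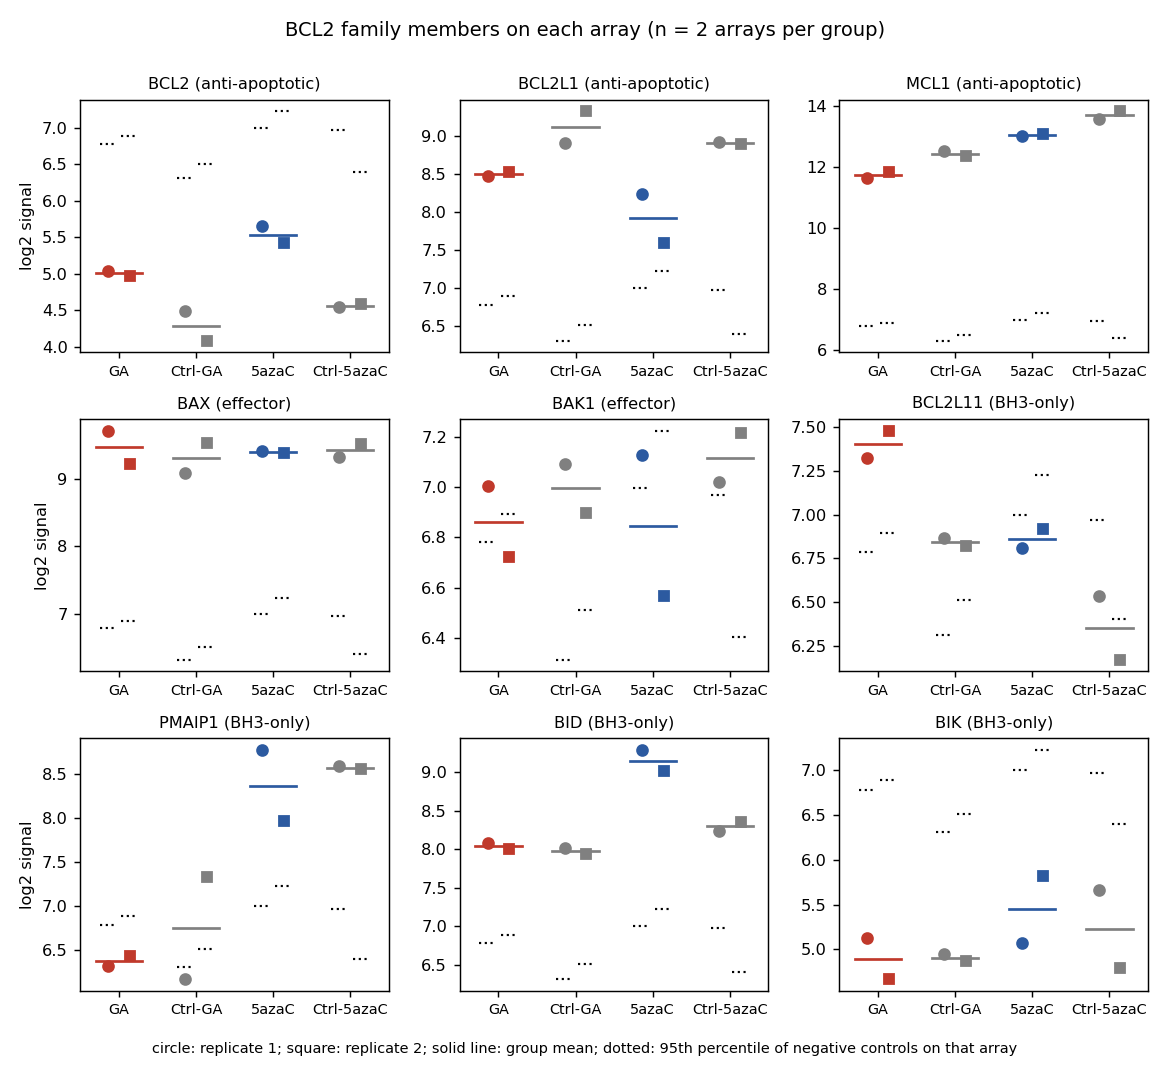
Log2 signal (y axis, its own range in each panel) of the 9 measured members on each array, by group (x axis), where points are arrays, solid lines are means of 2 arrays and dotted lines are the background of the array. BCL2 and BIK lie below background on all 8 arrays, and MCL1 lies lower in both GA-experiment groups than in both 5azaC-experiment groups.

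Among the anti-apoptotic members, the signals of MCL1 and BCL2L1 were lower on every treated array than on the untreated arrays of the same experiment, for GA and for 5azaC, but neither passed the test. MCL1, a short-lived guard of mitochondria that binds BAK1 and several BH3-only members, had log2 signals of 11.65 and 11.84 in GA cells, against 12.54 and 12.36 in Ctrl-GA cells. The 2 sets did not overlap. Its log2 fold change was -0.70 (SE 0.21, 95% interval -1.20 to -0.20), or 1.63-fold lower, with an adjusted p = 0.184 by limma. In 5azaC cells MCL1 was at 13.02 and 13.09, against 13.60 and 13.84 in Ctrl-5azaC cells, again without overlap. That log2 fold change was -0.67 (SE 0.21, 95% interval -1.17 to -0.17), or 1.59-fold lower, with an adjusted p = 0.144.

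BCL2L1 encodes BCL-XL, which holds BAX and BAK1 inactive, and a short spliced form of it promotes death. The array gives 1 value for the gene. BCL2L1 had log2 signals of 8.47 and 8.53 in GA cells, against 8.90 and 9.32 in Ctrl-GA cells. This gave a log2 fold change of -0.62 (SE 0.24, 95% interval -1.17 to -0.06), with an adjusted p = 0.271. In 5azaC cells BCL2L1 was at 8.23 and 7.60, against 8.92 and 8.89 in Ctrl-5azaC cells, so that both treated arrays were lower and the treated arrays were further apart than the untreated ones. The log2 fold change was -0.99 (SE 0.24, 95% interval -1.54 to -0.43), or 1.98-fold lower, with an adjusted p = 0.0845, without 5azaC replicate 1 it was -1.30 with an adjusted p = 0.0463, and without 5azaC replicate 2 it was -0.67 with an adjusted p = 0.214. A lower signal does not tell less RNA in every cell from fewer cells that carry it.

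BCL2, the founding member of the family, was below background on all 8 arrays, so no change is read. Its log2 signals were 5.04 and 4.97 in GA cells, against 4.50 and 4.09 in Ctrl-GA cells, and 5.66 and 5.42 in 5azaC cells, against 4.54 and 4.59 in Ctrl-5azaC cells. The treated arrays were the higher ones in both experiments, within the range that negative controls cover. Its adjusted p was 0.183 for GA and 0.0735 for 5azaC, and without the pair block 0.0362 for 5azaC.

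The effectors showed overlapping arrays in both experiments. BAX, which moves from the cytosol into the mitochondrial membrane when activated, had log2 signals of 9.72 and 9.22 in GA cells, against 9.09 and 9.53 in Ctrl-GA cells. One GA array was the highest of the 4 and the other lay between the untreated arrays, with a log2 fold change of 0.16 (95% interval -0.46 to 0.78, adjusted p = 0.836). In 5azaC cells BAX was at 9.42 and 9.38, against 9.33 and 9.52 in Ctrl-5azaC cells, and both 5azaC values lay between the untreated ones. The log2 fold change was -0.03 (95% interval -0.65 to 0.59, adjusted p = 0.969).

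BAK1, which sits in the mitochondrial membrane already, had log2 signals of 7.00 and 6.72 in GA cells, against 7.09 and 6.90 in Ctrl-GA cells. In 5azaC cells it was at 7.13 and 6.57, against 7.02 and 7.22 in Ctrl-5azaC cells. These values straddled the background, which BAK1 passed on 1 of 2 arrays of each treated group and on both arrays of each untreated group. The log2 fold change was -0.13 after GA (95% interval -0.70 to 0.44, adjusted p = 0.850) and -0.27 after 5azaC (95% interval -0.84 to 0.30, adjusted p = 0.589).

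The BH3-only members differed among themselves. BCL2L11 encodes BIM, which binds every anti-apoptotic member and can activate the effectors directly, and forkhead factors are known to switch it on. Its log2 signals were 7.32 and 7.48 in GA cells, against 6.86 and 6.82 in Ctrl-GA cells, with both GA arrays higher. This gave a log2 fold change of 0.56 (SE 0.22, 95% interval 0.04 to 1.08), or 1.47-fold, with an adjusted p = 0.280. In 5azaC cells BCL2L11 was at 6.81 and 6.92, against 6.54 and 6.17 in Ctrl-5azaC cells. Both 5azaC arrays were again the higher, but all 4 were below background and no change is read. Its window above held the forkhead letters and 34 CpG sites, and whether either bears on its signal was not tested.

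BID links death receptors to mitochondria after caspase cleavage. BID had log2 signals of 9.29 and 9.01 in 5azaC cells, against 8.24 and 8.35 in Ctrl-5azaC cells, with both 5azaC arrays higher. The log2 fold change was 0.85 (SE 0.21, 95% interval 0.36 to 1.35), or 1.81-fold, with an adjusted p = 0.0904, and without the pair block the adjusted p was 0.0439, where 4.14% of all probe sets passed. In GA cells BID was at 8.08 and 8.00, against 8.02 and 7.94 in Ctrl-GA cells, where the arrays overlapped and the log2 fold change was 0.06 (95% interval -0.43 to 0.56, adjusted p = 0.927).

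PMAIP1 encodes NOXA, which binds MCL1 and promotes its degradation. PMAIP1 had log2 signals of 6.33 and 6.43 in GA cells, against 6.17 and 7.33 in Ctrl-GA cells. Both GA arrays and 1 Ctrl-GA array were below background, the Ctrl-GA arrays lay on both sides of the GA arrays, and no fold is given (adjusted p = 0.637). In 5azaC cells PMAIP1 was at 8.77 and 7.96, against 8.59 and 8.55 in Ctrl-5azaC cells, with 1 5azaC array above and 1 below both untreated arrays. This gave a log2 fold change of -0.20 (95% interval -0.93 to 0.52, adjusted p = 0.765). PMAIP1 held 36 CpG sites in its window, the most among the members with a window, and a link to its signal was not tested.

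BIK, a BH3-only protein of the endoplasmic reticulum, was below background on all 8 arrays and no change is read. Its log2 signals were 5.13 and 4.67 in GA cells, against 4.95 and 4.87 in Ctrl-GA cells, and 5.08 and 5.82 in 5azaC cells, against 5.67 and 4.79 in Ctrl-5azaC cells. The arrays overlapped in both experiments.

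**Figure D2:**
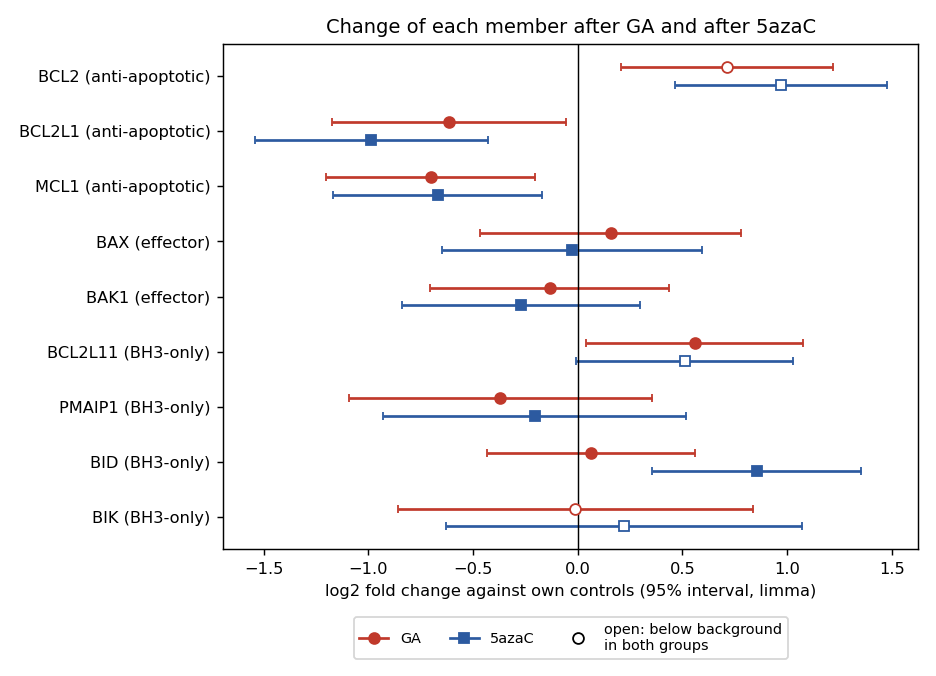
Log2 fold change (x axis) of each member (y axis) after GA (red circles) and 5azaC (blue squares) against its own controls, with 95% intervals from limma, where open points were below background in both groups. The intervals of BCL2L1 and MCL1 lie below 0 for both treatments, the interval of BID lies above 0 for 5azaC and spans 0 for GA, and those of BAX and BAK1 span 0.

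Whether the treatments differed was tested as the GA effect minus the 5azaC effect. By limma, 0 of 9 members and 0% of all probe sets passed at an adjusted p below 0.05, and 1 of 9 members had an unadjusted p below 0.05. This was BID, with a difference of -0.79 on the log2 scale (SE 0.30, 95% interval -1.49 to -0.09, unadjusted p = 0.032, adjusted p = 0.743). MCL1 differed by -0.03 (95% interval -0.74 to 0.67, adjusted p = 0.990) and BCL2L1 by 0.37 (95% interval -0.42 to 1.16, adjusted p = 0.847). The interval of MCL1 allows a difference of over 1.5-fold in either direction. For BCL2L11 no difference is read, since it was below background in 5azaC and Ctrl-5azaC cells.

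The level of the family before treatment was compared between the untreated cells of both experiments. Of the 9 members, 2 differed (22.2%), beside 19.3% of all probe sets, so the share for the family was near that of all genes. MCL1 averaged 12.45 ± 0.12 in Ctrl-GA cells and 13.72 ± 0.17 in Ctrl-5azaC cells (log2 signal, SD, n = 2 each), a difference of -1.27 (SE 0.21, adjusted p = 0.00472 by limma). PMAIP1 averaged 6.75 ± 0.82 in Ctrl-GA cells and 8.57 ± 0.03 in Ctrl-5azaC cells (n = 2 each), a difference of -1.82 (SE 0.36, adjusted p = 0.00946 by limma). Without Ctrl-GA replicate 1, the lower of its Ctrl-GA arrays and below background, the PMAIP1 difference was -1.24 with an adjusted p = 0.0688, and without Ctrl-5azaC replicate 1 it was -1.80 with an adjusted p = 0.0521.

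The other 7 members did not pass, and the 4 of them above background on all untreated arrays, BCL2L1, BAX, BAK1 and BID, differed by -0.32 to 0.21. BCL2L11, at 6.86 and 6.82 in Ctrl-GA cells against 6.54 and 6.17 in Ctrl-5azaC cells, was above background in Ctrl-GA cells alone, so the size of its difference is not read. Its adjusted p was 0.123, and it passed after median centring (adjusted p = 0.0421) and quantile normalization (adjusted p = 0.0469). The median log2 signal of an array was 5.60 to 5.63 in the GA experiment and 5.85 to 5.87 in the 5azaC experiment. The untreated difference of MCL1, in size, exceeded its log2 fold change after either treatment. Each experiment had its own cultures and arrays, and these cannot be told apart in this comparison.

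**Figure D3:**
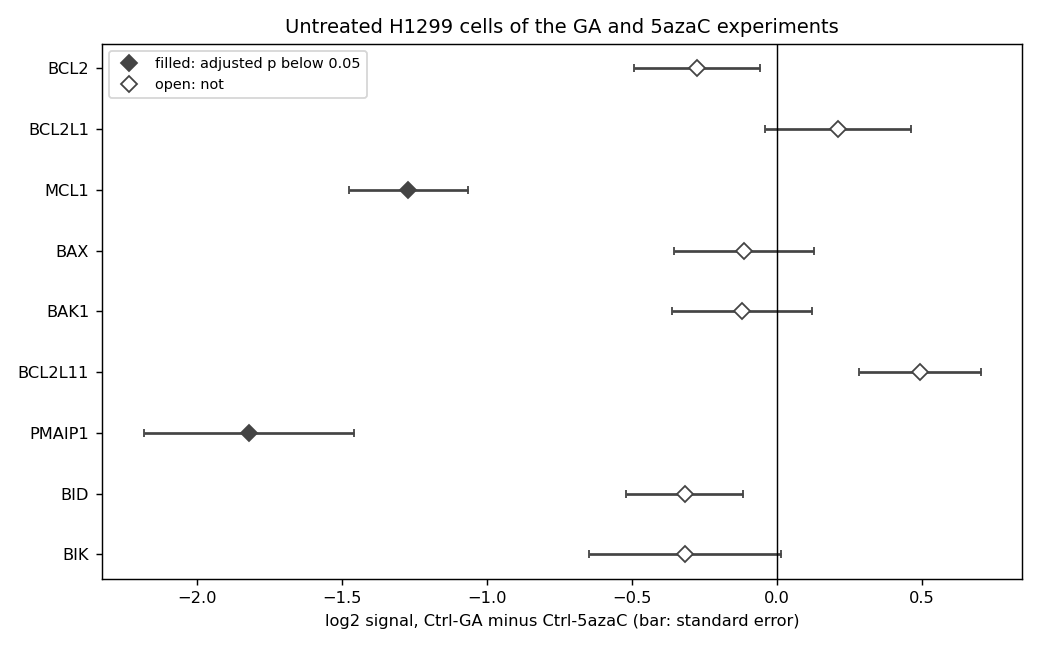
Difference in log2 signal (x axis), Ctrl-GA minus Ctrl-5azaC, for each member (y axis), with bars for the standard error, where filled points had an adjusted p below 0.05. MCL1, at -1.27, and PMAIP1, at -1.82, are the filled points, while BCL2 and BIK were below background in both groups and BCL2L11 in Ctrl-5azaC cells.

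The surroundings of the family were described by 50 further genes of the mitochondrial pathway in 6 lists, of which 45 were measured. After GA 3 of 45 fell and 0 rose, and after 5azaC 4 of 45 fell and 0 rose, against 0.322% and 1.51% of all probe sets called. Most calls over all probe sets were falls too, 52 of 69 after GA and 212 of 323 after 5azaC. With the trend and robust settings of eBayes 4 rose and 6 fell after GA, and 2 rose and 6 fell after 5azaC. At an unadjusted p below 0.05, 15 of 45 (33.3%) passed after GA and 14 (31.1%) after 5azaC, beside 15.8% and 20.3% of all probe sets. In each experiment 10 of the 45 were below background on all 4 arrays, against 11604 (GA) and 11474 (5azaC) of 21448 probe sets. The shares here and in the lists below therefore compare unlike sets. The median log2 fold change was 0.09 after GA and 0.08 after 5azaC, beside 0.02 and 0.05 over all probe sets. These lists were chosen with earlier results of these arrays known.

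The genes called lower after both treatments were 3 of the 8 transcription regulators measured, DDIT3, ATF4 and ATF3, which are factors of the integrated stress response. DDIT3 encodes CHOP, known to act on BH3-only genes and on BCL2. Its log2 signals were 6.03 and 6.10 in GA cells, against 8.84 and 9.37 in Ctrl-GA cells. As both GA arrays were below background, DDIT3 was at least 4.81-fold lower (limma adjusted p = 0.0037). In 5azaC cells DDIT3 was at 7.03 and 7.02, against 10.68 and 10.55 in Ctrl-5azaC cells, and fell by 3.60 on the log2 scale (SE 0.22, adjusted p = 0.0015), with 1 of the 2 5azaC arrays above background.

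ATF4, which is translated when protein synthesis is restrained and switches on DDIT3, had log2 signals of 12.23 and 12.14 in GA cells, against 13.82 and 13.95 in Ctrl-GA cells. It fell by 1.70 after GA (adjusted p = 0.0278). In 5azaC cells ATF4 was at 13.13 and 13.00, against 14.85 and 14.70 in Ctrl-5azaC cells, and fell by 1.71 (adjusted p = 0.0203). ATF3, a stress-induced repressor and activator, was at 5.71 and 5.98 in GA cells, below background, against 7.57 and 7.50 in Ctrl-GA cells, at least 1.62-fold lower (adjusted p = 0.0294). In 5azaC cells ATF3 was at 7.31 and 7.13, against 8.75 and 8.54 in Ctrl-5azaC cells, and fell by 1.42 (adjusted p = 0.0332), with 1 of the 2 5azaC arrays above background. With a single GA pair left in the fit the GA calls of all 3 were lost (adjusted p = 0.116 to 0.404), and without either GA pair the 5azaC calls of ATF4 (adjusted p = 0.0736) and ATF3 (adjusted p = 0.0897) were lost too. ATF3 was also not called after 5azaC without 5azaC pair 1 (adjusted p = 0.0778), 5azaC pair 2 (adjusted p = 0.0606) or Ctrl-5azaC replicate 1 (adjusted p = 0.0763), nor after GA without GA replicate 1 (adjusted p = 0.0515) or Ctrl-GA replicate 1 (adjusted p = 0.0624).

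Of 13 further BCL2-family genes, BCL2L13, a mitochondrial relative with a role in mitophagy, fell after 5azaC. Its log2 signals were 8.99 and 9.14 in 5azaC cells, against 10.44 and 10.35 in Ctrl-5azaC cells, and the log2 fold change was -1.33 (SE 0.22, adjusted p = 0.0415). Its call was lost without either GA pair (adjusted p = 0.0929), without 5azaC pair 1 (adjusted p = 0.123) or pair 2 (adjusted p = 0.0612), and without Ctrl-5azaC replicate 1 (adjusted p = 0.0846) or replicate 2 (adjusted p = 0.0598). In GA cells it was at 8.97 and 8.62, against 9.67 and 9.77 in Ctrl-GA cells, a log2 fold change of -0.92 (adjusted p = 0.115). BOK, an effector-like relative of BAX, was below background on both arrays of each treated group and above it in both untreated groups. It was at 6.64 and 6.54 in GA cells, against 7.90 and 7.74 in Ctrl-GA cells (at least 1.97-fold lower, adjusted p = 0.0729). Both GA signals exceeded the lower background of the Ctrl-GA arrays (6.31 and 6.51). In 5azaC cells BOK was at 5.78 and 6.41, against 6.98 and 7.24 in Ctrl-5azaC cells, with no fold given (adjusted p = 0.0651). Without the pair block BOK passed after GA (adjusted p = 0.0370) and after 5azaC (adjusted p = 0.0476), where 1.98% and 4.14% of all probe sets passed. At an unadjusted p below 0.05, 5 of 13 passed after either treatment, beside 15.8% of all probe sets for GA and 20.3% for 5azaC. These were BCL2L13, BOK and HRK, lower after both, and BCL2L12 and BNIP3, higher after both. BCL2L12 was higher by 0.90 in GA cells (adjusted p = 0.131) and by 0.69 in 5azaC cells (adjusted p = 0.154), on the log2 scale. BNIP3 was higher by 0.60 (adjusted p = 0.215) and 0.58 (adjusted p = 0.170). HRK was below background on all treated arrays.

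Downstream of the pores, 0 of 10 genes of the apoptosome and caspases passed, and 2 of 10 (20%), AIFM1 and APAF1, had an unadjusted p below 0.05 after either treatment, beside 15.8% of all probe sets for GA and 20.3% for 5azaC. The log2 fold change of AIFM1, a mitochondrial flavoprotein released with cytochrome c, was 0.94 in GA cells (adjusted p = 0.115) and 0.76 in 5azaC cells (adjusted p = 0.124), and with the trend and robust settings of eBayes it passed after both (adjusted p = 0.0217 and 0.0452). APAF1, the scaffold of the apoptosome, had 0.83 after GA (adjusted p = 0.213) and 0.80 after 5azaC (adjusted p = 0.167). Of 5 inhibitors of apoptosis 0 passed by limma. At an unadjusted p below 0.05, 2 of 5 (40%) passed after GA, XIAP and BIRC5, and 2 of 5 after 5azaC, XIAP and BIRC7, which was below background on all 8 arrays and is named after its values were seen, beside the same 15.8% and 20.3%. XIAP, which blocks caspases, had a log2 fold change of -0.99 in GA cells (adjusted p = 0.157), and passed without either 5azaC pair (adjusted p = 0.0426). In 5azaC cells XIAP was at 6.97 and 7.96, against 8.28 and 8.23 in Ctrl-5azaC cells, a log2 fold change of -0.79 (adjusted p = 0.172), and without 5azaC replicate 1 it was -0.30. BIRC5 (survivin) had 0.84 after GA (adjusted p = 0.153) and 0.53 after 5azaC (adjusted p = 0.250), and with the trend and robust settings it passed after GA (adjusted p = 0.0295).

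Of 3 mitochondrial channel genes and 6 genes of turnover and anchoring 0 passed by limma, while 1 of 3 channel genes after GA (VDAC3) and 1 of 6 genes of turnover and anchoring after 5azaC (BTRC) had an unadjusted p below 0.05, beside 15.8% and 20.3% of all probe sets. For VDAC1, a pore of the outer membrane, the log2 fold change was 0.48 in GA cells (adjusted p = 0.316) and 0.37 in 5azaC cells (adjusted p = 0.368), and VDAC3, a related pore, had 0.67 (adjusted p = 0.291) and 0.28 (adjusted p = 0.620). USP9X, which spares MCL1 from degradation, had -0.29 after GA (adjusted p = 0.567) and 0.08 after 5azaC (adjusted p = 0.879). BTRC, a substrate receptor of an SCF ubiquitin ligase, had 0.25 after GA (adjusted p = 0.641) and 0.65 after 5azaC (adjusted p = 0.156). DYNLL1, a dynein light chain that anchors BIM, had 0.10 (adjusted p = 0.863) and -0.35 (adjusted p = 0.402), and DYNLL2, which anchors BMF, had 0.29 (adjusted p = 0.572) and 0.25 (adjusted p = 0.554).

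**Figure D4:**
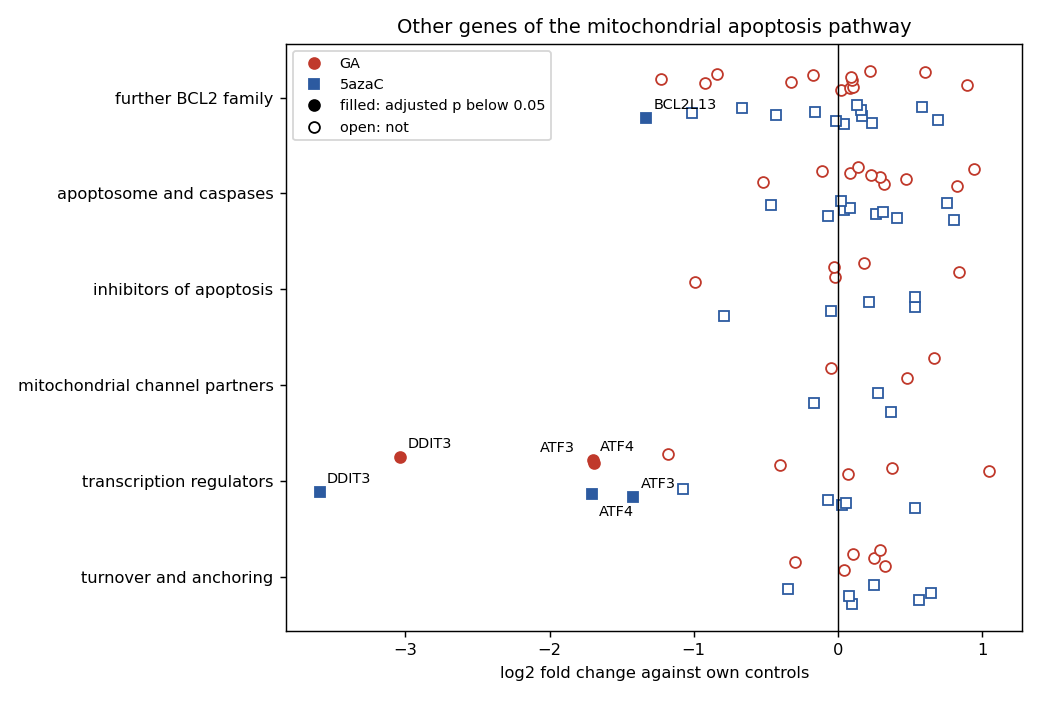
Log2 fold change (x axis) of the 45 further pathway genes by list (y axis) after GA (red circles) and 5azaC (blue squares), where filled points had an adjusted p below 0.05. The filled points are DDIT3, ATF4 and ATF3 for both treatments and BCL2L13 for 5azaC, all below 0.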

How the data were processed

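RNA of H1299 cells was measured on 8 Clariom S arrays in 4 groups of 2. In Affymetrix Expression Console 1.4 the authors applied Signal Space Transformation followed by RMA, and they deposited the log2 signals of 24351 entries. Leaving out 2903 controls, 21448 probe sets were tested, unfiltered, of which 17709 carry 1 gene symbol in the platform's probe table and 3739 are unnamed here. No source used here states the genome build behind the probe sets. For a gene with several probe sets the brightest was taken.

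Values were tested with limma 3.58.1 (R 4.3.3, lmFit and eBayes) in 1 fit of all arrays with a term for each of the 4 pairs and the effects of GA and 5azaC (2 residual and 5.56 prior degrees of freedom), with Benjamini-Hochberg adjustment over all probe sets. The pair term follows the methods' paired test and the labelled passage, although the paper's gene counts match an unpaired test. Deviations of paired arrays from group means correlated by -0.023 for GA and 0.0289 for 5azaC. Untreated groups were compared in a fit of 4 group means. The fit was tested on simulated data. P-values for GA and 5azaC measure how the 2 pair differences of an experiment disagree, as 1 estimate shared by both experiments. eBayes drew that estimate toward a prior from all probe sets. The untreated comparison used the spread within the 4 groups. Arrays give no read depth, and 2 cultures a group limit the precision. A bound sets the brighter group's mean against the background percentile or the gene's own signal, whichever was higher.

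Members and lists were chosen with earlier results of these data known. Named were all members, list genes called in either treatment, and per list and treatment the 2 largest changes above background. BCL2L12, BNIP3, HRK, MYC and E2F1 were named after their values were seen. BBC3 was not analysed here, and some other list genes are not reported here. Alternatives were a fit with no pair block, replicate numbers as the block, the 4 arrays of a comparison, median centring, quantile normalization, dropping the dimmest 33%, eBayes with trend and robust, the methods' paired and an unpaired test, the 99th percentile as background, and leaving out each array or pair. Promoter windows came from RefSeq (GRCh38.p14).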

Additional observations from a re-analysis of the deposited data

How the results depend on the processing

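Each group had 2 arrays. Of the 9 members, eBayes with trend and robust settings called 1 after GA (MCL1) and 3 after 5azaC (BCL2L1, MCL1 and BID). After 5azaC the fit with no replicate block called 2 (BCL2 and BID), the block by replicate number called 1 (BCL2) and dropping the dimmest 33% of probe sets called 2 (BCL2 and BCL2L1), and BCL2 was below background on every array. Leaving out arrays or pairs gave 0 to 1 members after 5azaC and 1 to 2 between the untreated groups. The cause of these moves was not tested. Of the 45 pathway genes, calls after GA were 5 with no replicate block, 6 with the 4 arrays alone, 5 without the dimmest 33%, 10 with trend and robust settings (4 higher and 6 lower), and 5 by the unpaired test at an unadjusted p below 0.05 and 2-fold. After 5azaC they were 6 with no replicate block (0 higher and 6 lower), 1 with the 4 arrays alone and 8 with trend and robust settings (2 higher and 6 lower). The methods' paired test and the unpaired test, each after Benjamini-Hochberg adjustment, called 0 for GA and 0 for 5azaC. Leaving out arrays or pairs gave 0 to 6 after GA and 1 to 5 after 5azaC. On leaving out arrays or pairs, the log2 fold changes of BAX, BAK1, PMAIP1 and BIK crossed 0, and those of the other 5 members did not. For BCL2, and for BCL2L11 after 5azaC, no change is read, since both groups were below background. BID stayed near 0 after GA, at 0.02 to 0.10, so its constant sign there shows no change. BAX ranged over -0.31 to 0.62 after GA and -0.14 to 0.088 after 5azaC, BAK1 over -0.28 to 0.0081 and -0.65 to 0.11, PMAIP1 over -0.95 to 0.21 and -0.61 to 0.20, and BIK over -0.24 to 0.22 and -0.59 to 1.03. The GA effect minus the 5azaC effect ranged over -0.22 to 0.15 for MCL1 and, with no difference read, -0.19 to 0.29 for BCL2L11. The methods' paired test called 160 probe sets after GA and 277 after 5azaC at an unadjusted p below 0.05 and 2-fold, and 9 and 3 after Benjamini-Hochberg adjustment. The unpaired test called 383 and 546, and 0 and 0 after adjustment. With the 99th percentile as background, 1 member, MCL1, was above it on all 8 arrays, against 4 with the 95th, so signal over background limits what can be read of the other members.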

Other observations

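The signals of the untreated cells also differed between the experiments in the pathway around the family. The median difference was -0.27 over the 45 further pathway genes and -0.18 over all probe sets, and how far this offset enters the counts was not tested. Of the 45 further pathway genes, 16 differed (35.6%, limma adjusted p below 0.05), 14 lower and 2 higher in Ctrl-GA than in Ctrl-5azaC cells, beside 19.3% of all probe sets, of which 3260 were lower and 874 higher. As given above, a smaller share of the 45 genes than of all probe sets was below background in each experiment, so these shares compare unlike sets. BNIP3 and BNIP3L, mitophagy receptors that carry BH3-like stretches, averaged 10.12 ± 0.05 and 12.23 ± 0.07 in Ctrl-GA cells, against 11.62 ± 0.09 and 13.52 ± 0.03 in Ctrl-5azaC cells (log2 signal, SD, n = 2 each), differences of -1.50 (limma adjusted p = 0.00254) and -1.29 (adjusted p = 0.00389). MYC, a driver of growth that can sensitize cells to apoptosis, was one of the 2 higher genes, at 13.86 ± 0.11 in Ctrl-GA cells and 12.83 ± 0.01 in Ctrl-5azaC cells, a difference of 1.03 (adjusted p = 0.00869). BNIP3, BNIP3L and MYC were chosen after their values were seen, and the cultures and arrays of the experiments cannot be told apart here.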
